A study of Mus musculus with 49 samples.

Results

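The 9 genes described here encode 3 neuropeptide precursors, Cck, Npy and Penk, and 6 proteins counted with the granins, Chga, Chgb, Scg2, Scg3, Scg5 and Pcsk1n. They were chosen by name, and all 9 are among the 9020 genes listed; 0 of the named genes were absent. Their levels were followed across 49 single neurons of wild-type CD1 mice, collected at postnatal day 7 (P7) from the primary somatosensory cortex. Neurons had been labelled at E13.5 (an embryonic day) with FlashTag (FT), a dye that marks cells dividing at the ventricular surface, so that the FT+ neurons were isochronic, that is born at the same time. The content of each neuron was drawn into a patch pipette and its RNA was sequenced from the 3′ end in 1 of 5 library pools of 12, 9, 9, 9 and 10 cells, and cells are called here by their number within the pool. All cells belong to 1 condition, and the labels name no animal, so the 49 cells are 1 sample: differences between cells are described and none was tested.

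Neuropeptides are made as longer precursor proteins, which are cut by convertases and trimmed inside dense core vesicles and are released from these when calcium rises. Granins are acidic proteins of the same vesicles, where they help to pack the cargo, and several are themselves cut into peptides. In the cortex, Cck is known from both excitatory neurons and a class of interneurons, whereas Npy and Penk are known mainly from interneurons, Penk largely from those that make vasoactive intestinal peptide (Vip).

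Promoters of several granin and peptide genes are known to carry the cAMP response element (CRE), to which CREB proteins bind. The stretches printed here show where its letters lie in the members. RefSeq promoter windows of 300 bases on GRCm38.p6, from 250 bases before to 50 bases after the gene's start in RefSeq, were matched by symbol for 8 of the 9 genes, the exception being Penk. The full element, TGACGTCA, which reads the same on both strands, was found in Scg2 and Chgb, and in 1.79% of all 32851 windows. Its first base lay at position -68 in Scg2 and at -72 in Chgb, counted from the RefSeq start. The GENCODE M21 genes, whose coordinates are given with the levels, begin earlier for both, so the element lies 26 bases inside the annotated gene for Scg2 and 292 for Chgb. The 5 letters TGACG, searched on both strands and contained in the full element, were found in 6 of the 8 windows (Scg2, Chgb, Chga, Cck, Scg3 and Scg5) and in 20.8% of all windows. The GC box, GGGCGG on either strand, was found in 5 of the 8 and in 35.7% of all. These are matches of letters, and the data hold no measurement of binding. Below are the last 150 bases of 4 windows in the direction of the gene, from 100 bases before to 50 bases after its RefSeq start, with the full element or, in Chga and Cck, the 5-letter match in capitals (in Cck as its reverse complement). They lie at chr1:79439977-79440126 on the minus strand for Scg2, chr2:132781542-132781691 on the plus strand for Chgb, chr12:102554841-102554990 on the plus strand for Chga and chr9:121495645-121495794 on the minus strand for Cck.
Scg2: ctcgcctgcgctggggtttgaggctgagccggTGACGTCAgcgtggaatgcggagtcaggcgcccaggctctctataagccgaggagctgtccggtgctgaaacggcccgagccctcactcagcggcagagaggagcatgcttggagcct
Chgb: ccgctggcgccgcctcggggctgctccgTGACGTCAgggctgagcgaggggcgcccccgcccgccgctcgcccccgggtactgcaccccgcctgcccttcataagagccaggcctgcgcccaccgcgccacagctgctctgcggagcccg
Chga: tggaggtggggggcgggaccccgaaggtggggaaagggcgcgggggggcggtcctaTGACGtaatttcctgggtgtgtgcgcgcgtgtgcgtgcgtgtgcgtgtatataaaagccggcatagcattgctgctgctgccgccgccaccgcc
Cck: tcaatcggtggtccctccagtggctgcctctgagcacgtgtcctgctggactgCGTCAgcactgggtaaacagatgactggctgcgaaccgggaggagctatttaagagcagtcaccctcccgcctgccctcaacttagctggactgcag

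Levels are in RPM, the reads of a gene scaled to 1 common total in every cell, and the reads behind each value could be recovered. The total per cell ranged from 209850 to 35342325 reads with a median of 1240101, so 1 read stood for between 0.0283 and 4.77 RPM. Neuronal identity was checked on 6 general neuron markers, each of which reached 10 RPM in 48 or 49 cells; their summed level ranged from 1293 to 15983 RPM. At least 2 of 6 excitatory markers reached 10 RPM in 37 cells and at least 2 of 7 inhibitory markers in 18. RNA of other cell types was present as well, with at least 2 listed genes at 10 RPM for microglia in 9 cells, for astrocytes in 12 and for oligodendrocytes and their precursors in 15. The microglial gene C1qb, which neurons should lack, had at least 1 read in 38 cells and 10 RPM in 11, and the astrocytic Aqp4 in 24 and 6. A share of cells at 1 read was therefore not read as expression, and a limit of 10 RPM was used. Hemoglobin genes took 68.8% of the reads in cell 1 of pool 3.

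Of the 9 genes, 7 reached 10 RPM in at least 25 of the 49 cells (all but Npy and Penk), where 38.2% of the 9020 genes did. At 100 RPM in at least 25 cells there were 5 (Cck, Chga, Chgb, Scg5 and Pcsk1n), against 13.7% of all genes. Those with at least 1 read in every cell were also 5 (Cck, Chgb, Scg2, Scg5 and Pcsk1n), against 8.10%. In at least 1 cell 7 members reached 1000 RPM (all but Chga and Pcsk1n), against 17.1%. No member reached 10 RPM in all 49 cells, which 2.20% of the genes did. The 6 granins reached 10 RPM in 28 to 48 cells, and Cck, Npy and Penk in 46, 22 and 10, where the median over all genes was 20 cells. The table lists genes that were high in at least some cells, and these shares are shares of such genes.

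**Figure D1:**
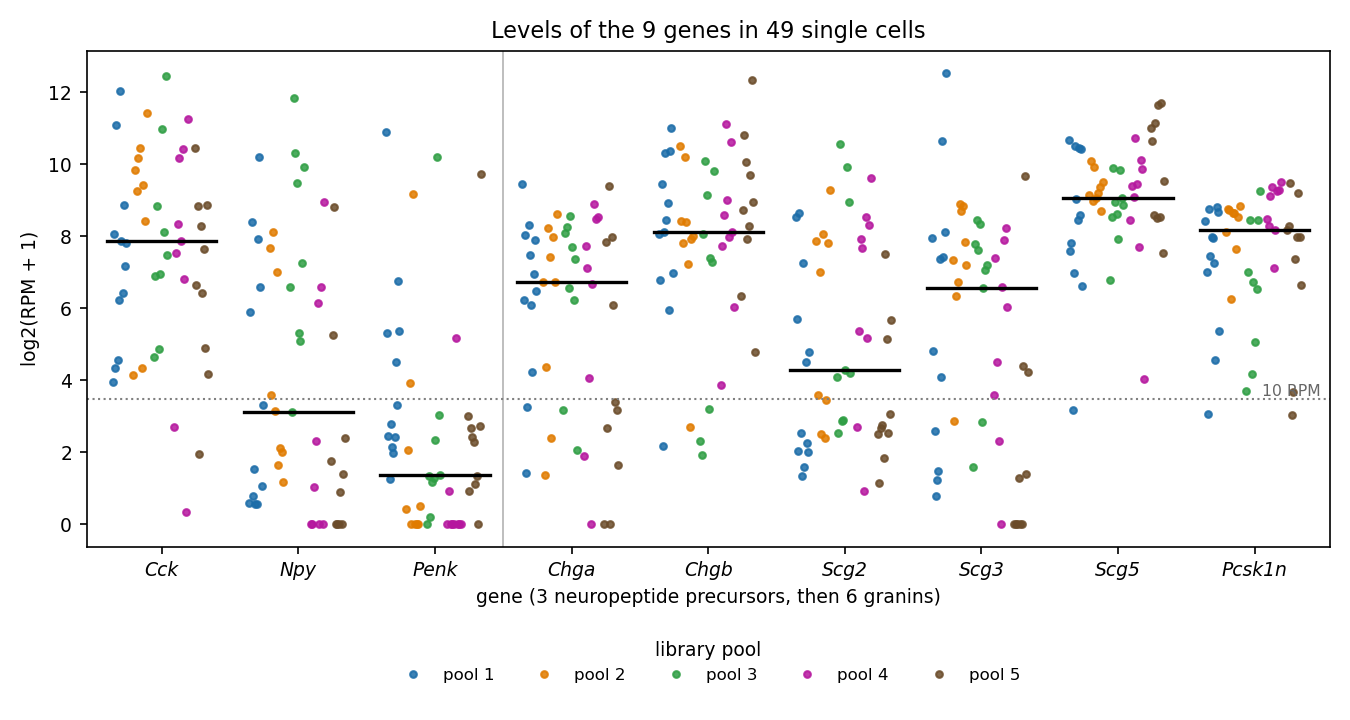
Level of each gene as log2(RPM + 1) in every cell; points are cells coloured by library pool, black bars are medians over 49 cells and the dotted line is 10 RPM. Scg5 and Pcsk1n have few low cells, whereas 22 cells reach the line for Npy and 10 for Penk.

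Scg5 (7B2; chr2:113776362-113829121, minus strand) encodes the chaperone that keeps the convertase Pcsk2 inactive on its way to the vesicle. It had the highest median of the 9 genes. Its level was 7.91 RPM in the lowest cell, 535 RPM at the median and 3293 RPM in the highest, cell 8 of pool 5. It reached 10 RPM in 48 cells (98.0%, exact 95% interval 89.1 to 99.9) and 1000 RPM in 12. The middle 50% of the cells lay between 363 and 972 RPM, and the SD was 1.63 on the log2(RPM + 1) scale, the smallest of the set. Over all genes the median SD was 2.63.

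Pcsk1n (proSAAS; chrX:7919822-7924410, plus strand), which encodes an inhibitor of the convertase Pcsk1, was as widespread and flatter at the top. It ranged from 7.15 RPM over a median of 285 RPM to 722 RPM, and it reached 10 RPM in 47 cells. Its highest cell, cell 9 of pool 4, was 2.54 times the median, and no cell reached 1000 RPM. The SD was 1.77 on the log2(RPM + 1) scale. The gene overlaps Eras on the other strand, and the sources used here do not say whether counting used strand, so reads of both cannot be told apart.

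Chgb (chr2:132781278-132795079, plus strand), a major acidic protein of the vesicle core, ranged more widely. It lay at 2.79 RPM in the lowest cell, 278 RPM at the median and 5175 RPM in the highest. That cell, cell 8 of pool 5, was also the highest for Scg5 and was the shallowest of all, with 209850 reads, of which 1086 were on Chgb. Chgb reached 10 RPM in 44 cells and 1000 RPM in 11. Chga (chr12:102554969-102565028, plus strand), the granin long used as a marker of neuroendocrine cells, was lower: 0 RPM in the lowest cells, 104 RPM at the median and 698 RPM in the highest, cell 1 of pool 1. It reached 10 RPM in 35 cells and 1000 RPM in 0. Among the 25 cells with at least the median number of reads the share at 10 RPM was 84.0%, against 71.4% in all. Spearman's rho of Chga with reads per cell was 0.332, where the median over all genes was 0.269.

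Scg3 (chr9:75643189-75684056, minus strand), which binds Chga and cholesterol at the vesicle membrane, ranged from 0 RPM over 93.9 RPM to 5884 RPM, and 33 cells reached 10 RPM. A single cell stood far above the rest. In cell 12 of pool 1 Scg3 made up 90.1% of the reads on the 9 genes. That cell had 225363 reads in all, 1326 of them on Scg3, and 3275 RPM of Sst, the somatostatin precursor. Of its other inhibitory markers Gad1 was at 17.7 RPM, and Gad2, Slc32a1 and Lhx6 were at 0 RPM. Of the excitatory markers Slc17a7 was at 26.6 RPM, Neurod6 at 13.3 RPM and Neurod2 at 0 RPM. The next cell for Scg3 lay at 1589 RPM. Scg3 overlaps Gm37871 on the other strand, with the same limit as for Pcsk1n.

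Scg2 (secretogranin II, the precursor of secretoneurin; chr1:79434669-79440120, minus strand) had at least 1 read in all cells but a median of 18.2 RPM, the lowest of the granins, with a range from 0.893 to 1501 RPM. It reached 10 RPM in 28 cells and 100 RPM in 17. The middle 50% of the cells, from 4.79 to 221 RPM, spanned both sides of the limit. The highest cell, cell 3 of pool 3, was also the highest for Npy.

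Cck (chr9:121489824-121495694, minus strand), the cholecystokinin precursor, was the only precursor found at high level in most cells. It ranged from 0.250 RPM over a median of 231 RPM to 5616 RPM. It reached 10 RPM in 46 cells (93.9%, 83.1 to 98.7), 100 RPM in 33 (67.3%, 52.5 to 80.1) and 1000 RPM in 11. The highest values were 5616 RPM in cell 8 of pool 3, 4163 RPM in cell 7 of pool 1 and 2721 RPM in cell 9 of pool 2, so the high cells did not come from 1 pool. The first of these also held 886 RPM of C1qb, 135 RPM of Gad2 and 104 RPM of Neurod6, with Gad1 at 4.82 RPM. The vesicular glutamate transporter Slc17a7 was at 8.19 RPM in that cell. Cell 7 of pool 1 held 387 RPM of Slc17a7 and 500 RPM of Neurod6, with Gad1 and Gad2 under 1 RPM. Cell 9 of pool 2 held 28.6 RPM of Slc17a7 and 802 RPM of Neurod6, with Gad1 at 0.614 RPM and Gad2 at 0 RPM. Many of the lower Cck values were small beside the richest cell of the same pool: of the 46 cells at 10 RPM, 23 had over 5% of the reads of that cell, and 23 did not. The part of reads that pass between cells of a pool in these values was not tested.

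Npy (neuropeptide Y; chr6:49822710-49829507, plus strand) varied widely between cells. It was at 0 RPM in 8 cells, at a median of 7.62 RPM, and at 3671 RPM in cell 3 of pool 3. It reached 10 RPM in 22 cells (44.9%, 30.7 to 59.8) and 100 RPM in 13 (26.5%, 14.9 to 41.1). In pool 3, 8 of 9 cells reached 10 RPM, against 14 of the 40 other cells. Of the 22 cells, 13 had over 5% of the Npy reads of the richest cell of their pool, and 9 did not. The part of reads that pass between cells of a pool was not tested for Npy. The cell with the most held 86.1% of the Npy reads of its pool, together with 559 RPM of Gad1 and 807 RPM of Gad2, which encode the enzymes that make GABA, 45.9 RPM of Slc32a1, and of the excitatory markers 148 RPM of Neurod2, 49.1 RPM of Neurod6 and 22.4 RPM of Slc17a7. In the next cell, cell 4 of pool 3, Npy was at 1270 RPM while Gad1 was at 1.26 RPM, Gad2 at 0.628 RPM and Neurod6 at 563 RPM. Cell 9 of pool 1 held 1163 RPM, beside 397 RPM of Slc17a7, 1343 RPM of Neurod2 and 1149 RPM of Aqp4; of its inhibitory markers Slc32a1 was at 324 RPM, Gad1 at 0 RPM and Gad2 at 1.62 RPM. The 3 cells with the most Npy thus differed in their markers.

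Penk (proenkephalin; chr4:4133531-4138819, minus strand) was confined at high level to a few cells. It was at 0 RPM in 13 cells, at 1.58 RPM at the median and at 1887 RPM in the highest cell. It reached 10 RPM in 10 cells (20.4%, 10.2 to 34.3), no more than the 11 of C1qb, and 100 RPM in 5 (10.2%, 3.40 to 22.2). Those 5 cells were 1887 RPM in cell 1 of pool 1, 1169 RPM in cell 7 of pool 3, 840 RPM in cell 10 of pool 5, 569 RPM in cell 5 of pool 2 and 107 RPM in cell 11 of pool 1. The next cell lay at 39.9 RPM, and the first 3 held 81.1% of the RPM summed over all cells. Of the 10 cells at 10 RPM, 6 had over 5% of the Penk reads of the richest cell of their pool, and 4 did not. Cell 11 of pool 1 was among those 4, with 1486 Penk reads beside 36868 in cell 1. The part of reads that pass between cells of a pool was not tested here either. Penk overlaps A830012C17Rik on the other strand, with the same limit as for Pcsk1n.

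The 3 cells with the most Penk were the 3 cells with the most Vip, and no other cell reached 1000 RPM of Vip. For the 4 inhibitory markers Gad1, Gad2, Slc32a1 and Lhx6 the cells differed, and Lhx6 was at 0 RPM in each. Cell 1 of pool 1 had 1475 RPM of Vip, with 152 RPM of Gad1, 255 RPM of Gad2 and 10.4 RPM of Slc32a1. Cell 7 of pool 3 had 6203 RPM of Vip, with 249 RPM of Gad1, 1.72 RPM of Gad2 and 195 RPM of Slc32a1, and was also the highest cell for Tac2, the neurokinin B precursor (11092 RPM), and Crh, the corticotropin-releasing hormone precursor (1540 RPM); it also held 357 RPM of C1qb. Cell 10 of pool 5 had 8113 RPM of Vip, with 2.10 RPM of Gad1, 552 RPM of Gad2 and 462 RPM of Slc32a1. The fourth highest Vip value was 110 RPM. The fourth Penk cell, cell 5 of pool 2, was different: Vip was at 0 RPM and Cck at 1395 RPM, with 54.5 RPM of Gad1, 2.72 RPM of Gad2 and 32.7 RPM of Slc32a1. The fifth, cell 11 of pool 1, had 292 RPM of Slc17a7, and Gad1, Gad2 and Slc32a1 were under 1 RPM.

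**Figure D2:**
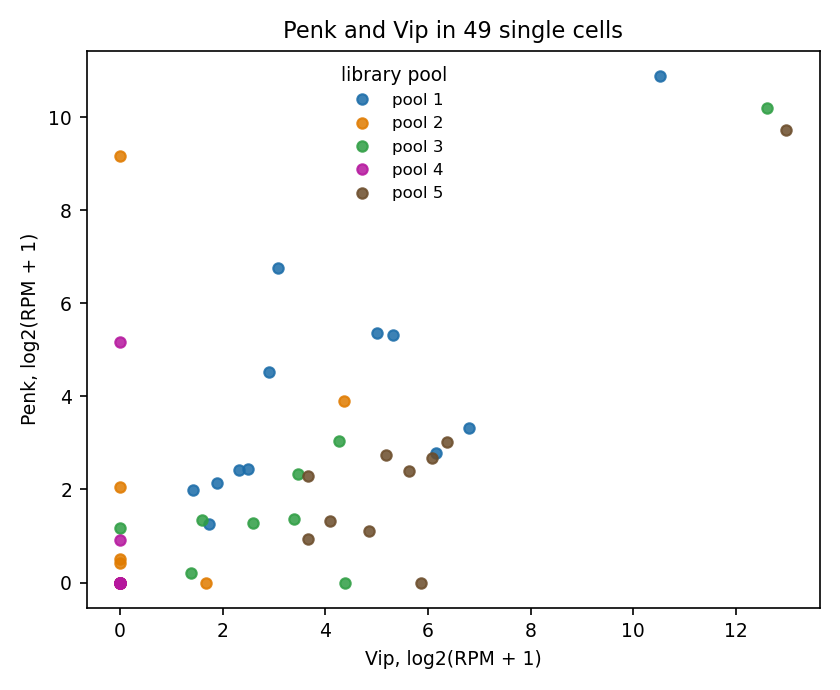
Penk against Vip, both as log2(RPM + 1), in 49 cells coloured by library pool. The 3 cells at the upper right hold 840 to 1887 RPM of Penk and 1475 to 8113 RPM of Vip; the point at the upper left is cell 5 of pool 2, with no Vip read.

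Over the 49 cells, Spearman's rho between Penk and Vip was 0.621, and without the 3 cells it was 0.540 (46 cells), so the ranks of the low values contributed. Centred within library pools on the log2(RPM + 1) scale it was 0.490. The low values differed between pools. In pool 1, where cell 1 had 95.1% of the Penk reads, every cell had at least 1.38 RPM of Penk. That lowest value, in cell 4, stood for 19 reads. Pool 1 had a median of 9870201 reads per cell, against 814366 to 1409643 in the other pools. The part of depth in these low values was not tested. In pool 4, where 1 cell reached 10 RPM, the median was 0 RPM. Pools 2, 3 and 5 had highest Penk cells of 569, 1169 and 840 RPM, and the lowest cell of each was at 0 RPM. Their medians were 0.343, 1.52 and 4.09 RPM. For Vip the lowest cell was at 11.7 RPM in pool 5, which holds the highest Vip cell, and the highest was at 0 RPM in pool 4. In pools 1 and 3, whose highest Vip cells were at 1475 and 6203 RPM, the lowest were at 1.67 and 0 RPM. The part of reads shared within a pool in this correlation was not tested.

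At 100 RPM the precursors were more often found alone than together, and the overlaps lay near those that their separate counts would give. Cck and Npy met in 9 cells (8.76 expected), Cck and Penk in 3 (3.37) and Npy and Penk in 1 (1.33). Each of these includes the cell with all 3. Cck alone was found in 22 cells, Npy alone in 4 and Penk alone in 2. Cck with Npy was found in 8 cells, Cck with Penk in 2, all 3 in 1, Npy with Penk alone in 0 and none in 10. At least 1 precursor reached 100 RPM in 39 cells (79.6%, 65.7 to 89.8). At 10 RPM every cell with Npy or Penk also had Cck, but so did most cells, since 46 of the 49 had Cck at that limit. The cell with the most Sst, cell 8 of pool 4 (5288 RPM, with 383 RPM of the interneuron gene Lhx6), had none of the 3 at 10 RPM: Cck was at 0.250 RPM, Npy and Penk at 0 RPM, while its 6 granins lay between 278 and 927 RPM.

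Summed over the 9 genes, a cell held between 270 and 9907 RPM, with a median of 3007 RPM or 0.301% of its reads. The lowest was cell 1 of pool 3, the cell rich in hemoglobin, and the highest was cell 8 of pool 5. Most of the sum came from granins, with a median of 1881 RPM against 478 RPM for the precursors. The most abundant member of a cell was Scg5 in 14 cells, Chgb in 13, Cck in 11, Npy in 4, Penk in 3, Scg3 in 2, Pcsk1n in 2 and Chga or Scg2 in 0. A cell had between 3 and 9 members at 10 RPM, with a median of 7. All 6 granins reached 10 RPM in 20 cells (40.8%) and 100 RPM in 9, and no cell had fewer than 2 granins at 10 RPM.

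**Figure D3:**
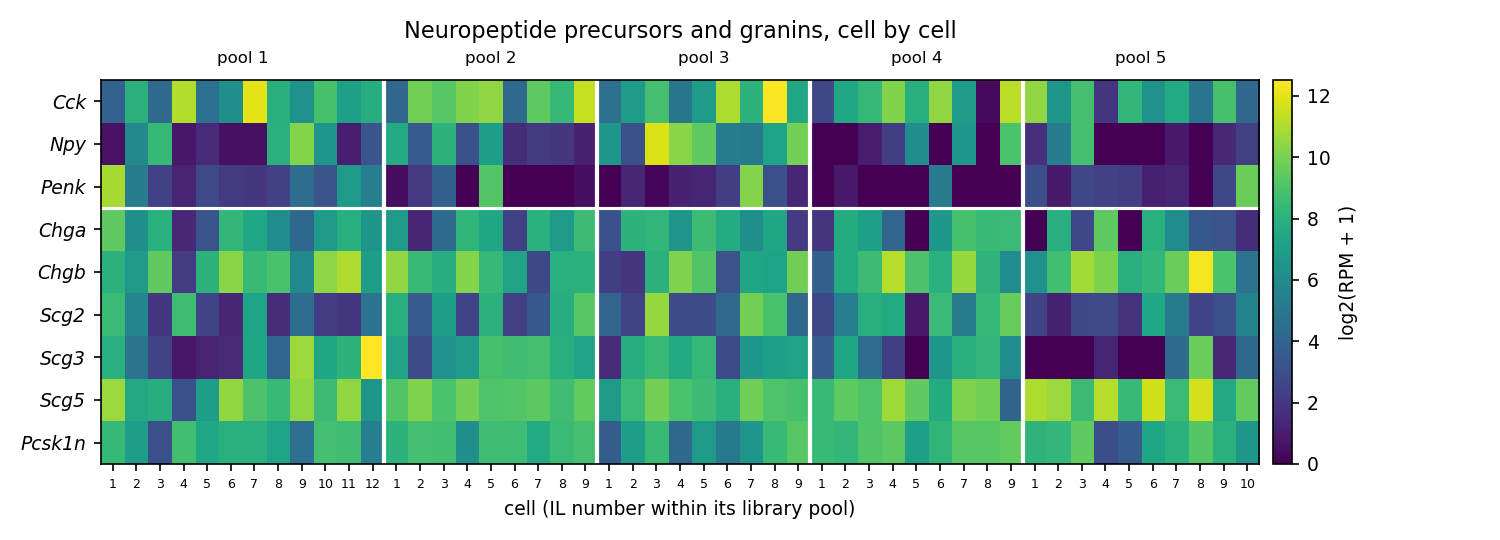
Level of the 9 genes as log2(RPM + 1) in each of the 49 cells, in columns ordered by library pool, with the 3 precursors above the 6 granins. The rows of Scg5 and Pcsk1n are filled almost throughout, Penk is bright in a few columns, and the row of Scg3 is dark in most cells of pool 5.

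By median RPM the order of the genes was Scg5, Pcsk1n, Chgb, Cck, Chga, Scg3, Scg2, Npy and Penk. Per kilobase of the longest annotated transcript Cck moved to place 2, before Pcsk1n and Chgb, and Npy to place 7, before Scg2. Reads came from 3′ ends, and over 8835 genes the rho of median RPM with transcript length was -0.0773, so the order in RPM was kept. The middle 50% of the cells of Pcsk1n (128 to 423 RPM), Chgb (148 to 829 RPM) and Cck (73.8 to 680 RPM) overlapped. Those of Chga (8.52 to 252 RPM) and Scg3 (3.93 to 226 RPM) overlapped too. That of Scg5 reached into those of Pcsk1n, Chgb and Cck. Npy (0.856 to 127 RPM) overlapped Scg2, and Penk (0 to 7.06 RPM) overlapped Npy. All genes were measured in the same cells, so overlap of these ranges does not show that neighbours are equal. Differences between genes within a cell were not tested.

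Between library pools the summed level varied little, with pool medians from 2727 to 3251 RPM, while single genes varied more. The median of each pool was set against that of all other cells, with a difference of 2 on the log2(RPM + 1) scale as the limit. In pool 5, Npy, Chga, Scg2 and Scg3 were lower by at least that much, 4 of 9 where 17.9% of all genes were, and 0 were higher, where 6.98% of all genes were. Scg3 had a median of 0.715 RPM in pool 5 and of 145 RPM elsewhere, with 3 of 10 cells against 30 of 39 at 10 RPM. For Chga the medians were 8.80 and 121 RPM, with 4 of 10 cells against 31 of 39. For Npy they were 1.23 and 11.1 RPM, and for Scg2 5.56 and 26.6 RPM. Scg5, in contrast, had its highest pool median in pool 5, at 1169 RPM, and Chgb too, at 459 RPM. In pool 4 Npy and Penk were lower (2 of 9, where 10.9% of all genes were) and Scg2 was higher (1 of 9, against 10.5%), with a median of 201 RPM in the pool. For Npy the medians in pool 4 and elsewhere were 1.03 and 8.34 RPM, and for Penk 0 and 3.66 RPM. All of these lie under the limit of 10 RPM, where a few reads set the value. In pool 2 Scg2 and Scg3 were higher (2 of 9, against 13.9%) and 0 lower (5.35%), and in pool 3 Npy was (1 of 9, against 16.2%), with 150 RPM against 2.67 RPM elsewhere, and 0 were lower (4.72%). Pool 1, the deepest, had 0 members past the limit upward (9.65% of genes) and 0 downward (6.61%). The median depth was 814366 reads in pool 5 and 9870201 in pool 1. Cells of different days and positions had been mixed in each pool, and with 1 pool of each kind, its cells and its library cannot be told apart.

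The granins did not rise and fall as 1 block. Over the 49 cells, which share library pools and a common scaling to RPM, the median of Spearman's rho over the 15 pairs of granins was 0.166, with 12 pairs above 0. The highest were Chga with Scg3 (0.371) and Chgb with Scg5 (0.362), and the lowest was Chgb with Scg2 (-0.302). With the 7419 genes that reached 10 RPM in at least 10 cells, rho of a granin was typically between 0.0309 (Scg5) and 0.119 (Chga). The share of pairs above 0 over all genes is not given here. With all cells thinned to 358412 reads the median over the granin pairs was 0.180 (44 cells), and centred within pools it was 0.219. Thinned and within pools, Chga with Scg3 was 0.352 and 0.351, and Chgb with Scg5 was 0.180 and 0.408. Chgb with Scg2 was -0.342 thinned and -0.131 within pools, and leaving out 1 pool at a time gave -0.368 to -0.134. For the 18 pairs of a precursor with a granin the median was -0.0598, from -0.275 for Penk with Pcsk1n to 0.317 for Cck with Scg2. After thinning the former was 0.0411 and the latter 0.258, and centred within pools they were -0.0976 and 0.329. For the 3 pairs of precursors rho lay between 0.0743 and 0.133. At these sizes the correlations are descriptions of sparse counts only.

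**Figure D4:**
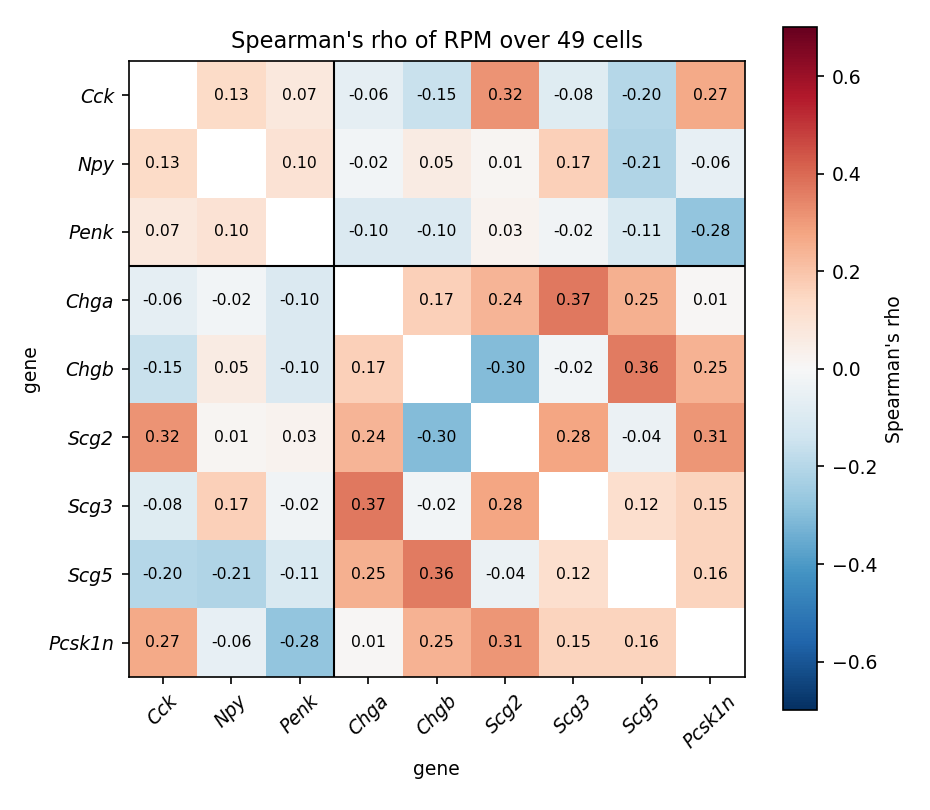
Spearman's rho of RPM between each pair of genes over 49 cells, with blue for negative and red for positive values; lines divide precursors from granins. Most values are pale, the reddest pair being Chga with Scg3 at 0.371 and the bluest Chgb with Scg2 at -0.302.

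For each gene the 3 genes with the most similar pattern, by Spearman's rho over the 49 cells, were taken from the 7419 others that reached 10 RPM in at least 10 cells. For Cck they were Nrgn (0.496), Anxa5 (0.492) and Cinp (0.485). For Npy they were Unc45a (0.566), AK010878 (0.515) and Pnoc, the nociceptin precursor (0.503). Penk had Vip (0.621), Dusp7 (0.614) and Cbln2 (0.583). Scg5 had Aplp1 (0.648) and App (0.625). Chgb had Eif5b (0.658), Jak1 (0.528) and Ankrd12 (0.522), and Chga had Kmt2e (0.578) and Lingo3 (0.557). Scg2 had St7l (0.507), Galnt14 (0.491) and Itm2c (0.484), Scg3 had Ing2 (0.608), Actr6 (0.563) and Sec11a (0.544), and Pcsk1n had Csnk1e (0.571), Tomm40 (0.529) and Tecr (0.516). Such values are the highest of 7419, and none of the 9 genes was among the 3 nearest of another. With depth per cell partialled out, 24 of the 27 nearest genes stayed among the nearest 3.

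Genes for cutting and releasing peptides were described by the same limit, which 38.2% of all genes passed in at least 25 cells. Of 11 listed processing enzymes 5 are in the table, and 4 of these reached 10 RPM in at least 25 cells. Cpe, carboxypeptidase E, which trims the ends of cut peptides, reached it in all 49 cells, with a range from 22.8 RPM over a median of 818 RPM to 9081 RPM. Pcsk2, the convertase that Scg5 serves, reached it in 42 cells with a median of 225 RPM, and Pam, which amidates peptides such as those of Cck and Npy, in 26. Of 20 listed genes for dense core vesicle formation and release 17 are in the table, and 12 reached 10 RPM in at least 25 cells. The highest medians were those of Snap25 (1101 RPM), Rab3a (890 RPM), Rab2a (455 RPM), Syt4 (255 RPM) and Vamp2 (252 RPM), of which Snap25, Rab3a and Vamp2 also serve small synaptic vesicles. The vesicle priming factor Cadps reached 10 RPM in 32 cells. Ptprn, a protein of the vesicle membrane, reached it in 27 and its relative Ptprn2 in 14.

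Of 17 other precursor genes listed 12 are in the table, and 0 reached 10 RPM in at least 25 cells, where 38.2% of all genes did. They reached it in 2 to 23 cells with a median of 10, against 20 over all genes. Vip reached it in 20 cells and Sst in 14, but 1000 RPM in 3 and 2. Of 19 receptors listed 6 are in the table, and again 0 reached 10 RPM in at least 25 cells, with a range from 8 to 19 cells. The NPY receptor Npy1r reached it in 19 cells, up to 703 RPM, the nociceptin receptor Oprl1 in 15 and the CRH receptor Crhr1 in 17.

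**Figure D5:**
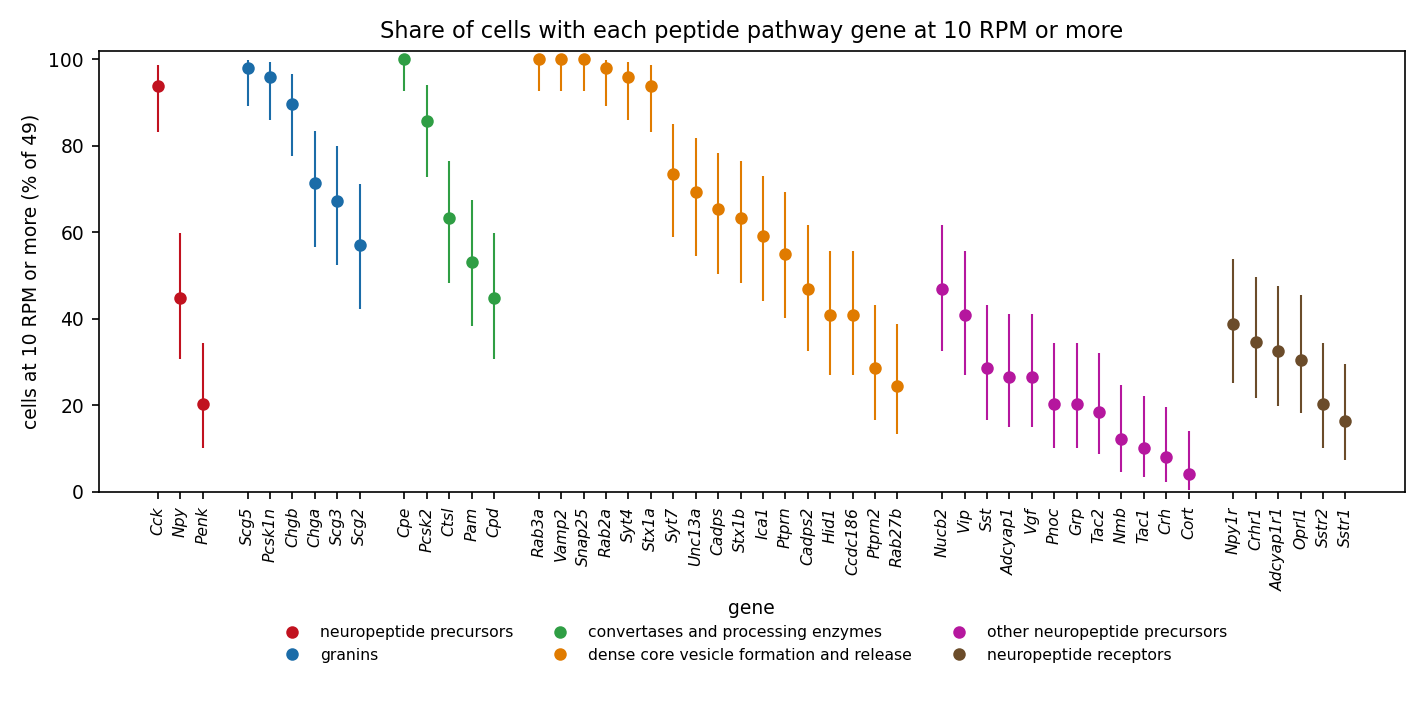
Percent of the 49 cells in which each gene of the peptide pathway reached 10 RPM, with exact 95% binomial intervals, by list. Scg5, Pcsk1n, Chgb, Cck, Cpe and Pcsk2 reach it in at least 42 cells, whereas all 12 other precursors and all 6 receptors reach it in at most 23.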

How the data were processed

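Reads of SMART-Seq v4 3′ DE cDNA in Nextera XT libraries had been aligned by the authors to GRCm38 with STAR and counted with HTSeq; versions, annotation and strand setting are not given in the sources used here. The deposited table holds RPM per gene, before any log2 step. The smallest value of a cell was taken as 1 read, which made 100% of the nonzero values whole reads to within 0.01; scripts were tested on simulated data. Without molecular identifiers, several reads can stem from 1 molecule. Intervals (Clopper-Pearson, 95%) are binomial over the 49 cells taken as independent and leave out differences between animals, and 1 read was worth 4.77 RPM in the shallowest cell, more than many low values. No count model was fitted, since all cells are 1 condition.

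The members and lists were chosen with earlier results of these data known. Named genes are the members, the cells' highest values, the listed pathway and marker genes and the 3 nearest genes of each member, of which 2 are not reported here; the comparison of pools and the values of marker genes, Vip, Tac2 and Crh beside the members, and of Cadps, Ptprn and Ptprn2, were chosen after values were seen. Gene coordinates come from GENCODE M21 (GRCm38). Alternatives were limits of 1 read, 10 reads and 100 RPM, thinning, scaling on nuclear genes without hemoglobin or with edgeR's TMM, pseudocounts of 0.1 and 10, subsets of cells, and leaving out each pool. The study describes 6 experiments, but the labels tie no cell to one, and radial positions were not used here. The tools were R 4.3.3 with edgeR 4.0.16 and Python 3.11.15 with scipy 1.17.1, pandas 2.3.3, numpy 2.4.6 and matplotlib 3.10.9.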

Additional observations from a re-analysis of the deposited data

How the results depend on the processing

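Of 78 recomputed values of the summary results, 66 were counted as the same, 10 as moved and 2 as reversed in sign. For levels and counts, the same means a move under the spread between cells or within 1.5 times the main count. That rule does not cover the median correlations, of which those between the precursors are given below. The median number of members per cell was 7 at 10 RPM, 9 with a limit of 1 read and 5 with a limit of 100 RPM. The median rho between the precursors was 0.103. It was 0.0378 after thinning, 0.0382 in the 41 cells under 1% hemoglobin, and 0.00389 and 0.0676 as Pearson's r with pseudocounts of 1 and 0.1. It turned to -0.0369 in the 25 cells with at least the median reads and to -0.0740 as Pearson's r with a pseudocount of 10, so it carries no direction. Leaving out 1 library pool at a time gave 0.0509 to 0.199. The cause was not tested.

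Of the shares of cells at 10 RPM recomputed at that limit under other scalings and subsets, 91 lay within the main interval and 8 did not. Of those 8, 6 came from counting only cells with over 5% of the reads of the richest cell of their pool, which left Scg5 in 77.6% of the cells, Pcsk1n in 75.5%, Chgb in 69.4%, Cck in 46.9%, Scg2 in 38.8% and Npy in 26.5%, and 5 members rather than 7 in at least 50% of the cells. The correlation of Penk with Vip within pools and without 3 cells was chosen after seeing the data. No pairing of conditions was possible because every neuron belongs to 1 condition, and differences between genes within a cell were not tested. Depth limits the low values: in the shallowest cell no value between 0 and 4.77 RPM is possible.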
